A study of Mus musculus with 8 samples.

Results

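H3K9ac peaks of *GFI1-36S*, *NUP98-HOXD13-tg* bone marrow (BM) were compared between 1 library labelled curcumin and 1 library labelled vehicle. All listed peaks on chromosomes 1 to 19 were taken, 40537 of the vehicle-labelled and 19931 of the curcumin-labelled library, or 60468 of the 220499 peaks in the 6 lists of the series. Both libraries came from mice with the *NUP98-HOXD13* transgene, a model of myelodysplastic syndrome (MDS) that progresses to leukaemia, and the 36S form of human *GFI1* knocked into the mouse *Gfi1* locus. Curcumin had been given at 20 mg/kg each week by i.p. injection and vehicle as an equal volume of DMSO, and chromatin came from frozen BM cells, although a figure legend of the study speaks of c-kit+ cells. Age, sex and leukaemic state are not given in the labels. Sample titles set the treatments here, whereas the names of the 2 deposited lists carry the opposite treatments, so that every direction turns round if those names are right. Each group was 1 library, and whether it came from 1 mouse or a pool is not stated, so that differences could not be set against replicates and carry no p-value.

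Acetylation of histone H3 at lysine 9 marks active promoters and enhancers. It is written by histone acetyltransferases (HATs), which curcumin inhibits, and removed by deacetylases that GFI1 recruits to its target genes. GFI1 directs neutrophil and lymphoid development and restrains monocytic and progenitor genes. Whole BM normally holds granulocytic, monocytic, erythroid and lymphoid cells, and each lineage carries the mark at its own genes, so that the peaks of a marrow library reflect both the cells present and the mark in each of them. In bulk chromatin, fewer cells of a type and less of the mark per cell cannot be told apart.

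The sequences of 9 regions that carry the difference are given from the GRCm38.p6 assembly, which has the coordinates of mm10. The distal windows are 200 bases of the plus strand centred on the summit of the peak, and capitals mark any motif searched here on either strand. These were AGATAA for GATA factors, GAGGAA for PU.1 and other ETS factors, TGTGGT for RUNX, TTGCNNAA for C/EBP, CTTTGA for TCF/LEF, CAGCTG for the E-box, TGANTCA for AP-1, and the interferon response element. Runs of CTTTGA and TGANTCA can overlap. The promoters, from RefSeq, run from 250 bases before to 50 bases after a gene's start on the gene's own strand, and there capitals mark CpG dinucleotides. The T-cell receptor windows were chosen because they were among the strongest distal sites listed in the library labelled curcumin alone, and the *Klf6*, *Gm11084* and *Cd34* windows because they were among the strongest listed in the library labelled vehicle alone.
Tcra J segments, curcumin-labelled library only, chr14:54194994-54195193 (+): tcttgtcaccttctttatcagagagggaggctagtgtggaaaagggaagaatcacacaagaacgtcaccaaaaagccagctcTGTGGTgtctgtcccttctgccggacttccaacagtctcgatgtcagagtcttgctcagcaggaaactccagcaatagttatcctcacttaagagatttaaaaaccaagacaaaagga
Tcrg J2 segment, curcumin-labelled library only, chr13:19309552-19309751 (+): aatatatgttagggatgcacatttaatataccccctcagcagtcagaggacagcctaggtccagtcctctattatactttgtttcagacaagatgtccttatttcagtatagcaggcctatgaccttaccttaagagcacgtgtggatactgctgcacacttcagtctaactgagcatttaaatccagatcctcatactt
Upstream of Klf6, vehicle-labelled library only, chr13:5845369-5845568 (+): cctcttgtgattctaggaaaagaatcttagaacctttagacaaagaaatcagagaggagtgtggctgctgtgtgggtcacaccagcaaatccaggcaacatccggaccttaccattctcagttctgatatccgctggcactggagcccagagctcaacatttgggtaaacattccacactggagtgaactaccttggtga
Near Gm11084, vehicle-labelled library only, chr2:73038218-73038417 (+): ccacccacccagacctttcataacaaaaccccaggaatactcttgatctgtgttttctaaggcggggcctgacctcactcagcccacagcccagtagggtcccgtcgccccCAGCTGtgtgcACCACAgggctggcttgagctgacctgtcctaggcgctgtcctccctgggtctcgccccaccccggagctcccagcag
Near Cd34, vehicle-labelled library only, chr1:194976437-194976636 (+): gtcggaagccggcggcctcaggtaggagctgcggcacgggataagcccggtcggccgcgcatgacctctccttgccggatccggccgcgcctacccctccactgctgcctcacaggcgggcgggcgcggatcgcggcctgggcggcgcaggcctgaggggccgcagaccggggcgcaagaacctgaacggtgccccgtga
Bcl11b promoter, curcumin-labelled library only, chr12:108003365-108003664 (-): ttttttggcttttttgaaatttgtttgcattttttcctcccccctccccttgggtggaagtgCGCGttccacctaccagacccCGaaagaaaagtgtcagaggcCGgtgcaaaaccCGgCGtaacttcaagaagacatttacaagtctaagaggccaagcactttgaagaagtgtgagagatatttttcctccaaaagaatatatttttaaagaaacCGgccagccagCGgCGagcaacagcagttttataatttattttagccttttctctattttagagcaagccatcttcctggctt
Zap70 promoter, curcumin-labelled library only, chr1:36761548-36761847 (+): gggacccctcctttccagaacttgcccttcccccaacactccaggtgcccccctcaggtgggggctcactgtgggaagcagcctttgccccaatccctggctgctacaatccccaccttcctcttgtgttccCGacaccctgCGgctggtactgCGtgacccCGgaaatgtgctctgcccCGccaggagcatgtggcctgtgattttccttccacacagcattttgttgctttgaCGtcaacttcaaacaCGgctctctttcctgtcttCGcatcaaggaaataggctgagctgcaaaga
Kit promoter, vehicle-labelled library only, chr5:75574737-75575036 (+): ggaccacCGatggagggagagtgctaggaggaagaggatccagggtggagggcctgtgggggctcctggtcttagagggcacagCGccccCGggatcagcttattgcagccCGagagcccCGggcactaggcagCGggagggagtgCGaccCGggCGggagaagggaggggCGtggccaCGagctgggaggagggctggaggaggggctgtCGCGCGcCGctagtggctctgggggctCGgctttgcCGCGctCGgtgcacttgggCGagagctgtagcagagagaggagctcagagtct
Mpo promoter, vehicle-labelled library only, chr11:87793534-87793833 (+): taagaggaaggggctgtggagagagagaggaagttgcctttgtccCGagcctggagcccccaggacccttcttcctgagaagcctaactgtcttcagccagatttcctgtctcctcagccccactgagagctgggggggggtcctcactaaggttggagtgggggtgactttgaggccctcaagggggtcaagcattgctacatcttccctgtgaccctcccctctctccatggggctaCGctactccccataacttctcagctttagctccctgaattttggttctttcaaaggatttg
The Tcrg, *Klf6* and *Cd34* windows held none of the motifs, and the *Gm11084* window an E-box and a RUNX motif. The *Kit* promoter held 20 CpG dinucleotides in its 300 bases, against 9 for *Bcl11b*, 8 for *Zap70* and 2 for *Mpo*.

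Several properties of the 2 libraries bear on every value. Whole fragment counts at the summits could be recovered from the fold enrichment and p of each peak for 99.9% of peaks labelled vehicle and 99.7% labelled curcumin, and relative to its own control the depth of the curcumin-labelled library was 0.902 times that of the other. The median summit held 28 fragments with vehicle and 35 with curcumin, and the weakest listed summit held 14 in either list. A promoter without a peak is therefore one that did not reach the list, not one shown to lack the mark. The library labelled curcumin also had 3 peaks on chromosome Y where the library labelled vehicle and the other 4 had 0, so that the sex of the mouse and the treatment cannot be told apart. Fold enrichment is not scaled between libraries. Each peak was therefore ranked within its own list from just above 0 to 100 by its fold enrichment over the local background, and a gene took the rank of its strongest promoter peak, or 0 without a peak. The strongest peak of a gene need not lie at the same place in both lists. A promoter covered 1 kb on each side of any transcription start site (TSS) of a protein-coding gene.

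The library labelled curcumin held fewer H3K9ac sites, and most of those it held were shared. Merging both lists gave 44167 sites, of which 12804 (29.0%) were in both, 27404 in the library labelled vehicle alone and 3959 in the library labelled curcumin alone. The vehicle-labelled sites made up 87.4% of those in 1 library only (Wilson 95% interval 87.0% to 87.7%, counting error only), or 12.6% with the treatments exchanged. Of the sites in the library labelled curcumin, 76.4% were also found with vehicle, while 31.8% of the vehicle sites were also found with curcumin. With the same number of top peaks taken from each list, the vehicle-labelled share fell to 61.0%. At promoters, 11554 of 20807 coding genes had a peak in at least 1 library. Both libraries had one at 9434 genes, the vehicle-labelled library alone at 1883 (16.3%) and the curcumin-labelled library alone at 237 (2.05%). Part of the promoters listed with vehicle alone were strong, since 506 of the 1883 had a rank of 75 or more, and 1285 of them (68.2%) had a peak in all 4 libraries of the other genotypes. The 237 promoters with a peak in the curcumin-labelled library alone showed the reverse, with a peak in all 4 other libraries at 20 and in none at 99 (41.8%). They also stood lower in their list, with a median rank of 43.0 against 65.6 for those with vehicle alone, and 16 had a rank of 75 or more.

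The rank of most promoters was lower in the shorter list, which has to be taken into account for every gene. Over the 11554 genes, the median rank was 86.8 with vehicle and 72.8 with curcumin, and the median difference, curcumin minus vehicle as labelled, was −12.81 rank points. A gene was called higher or lower at a difference of 20 rank points. By this measure 4078 genes (35.3%) were lower and 266 (2.30%) were higher, and these counts change places with the treatments exchanged. Of the 266 genes, 182 had a peak in the curcumin-labelled library alone. Among the 9434 genes with a peak in both libraries, ranked among themselves, 13.6% were called lower and 13.9% higher.

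At *Gfi1*, on the minus strand of chromosome 5 from 107716657 to 107726036, both libraries had a promoter peak. It held 64 fragments at the summit with vehicle and 87 with curcumin, with a fold enrichment of 10.9 and 15.7, respectively, and ranks of 76.8 and 86.1. *Gfi1* was thus 1 of the 1470 genes that ranked higher at all in the library labelled curcumin. The rise of 9.27 points did not reach a call, but it was 33.25 points with equal numbers of top peaks. Its paralogue *Gfi1b*, which acts in erythroid cells and megakaryocytes, had 48 fragments and rank 71.8 with vehicle and no peak with curcumin. The genes of the corepressor complex that GFI1 recruits kept their peaks in all 13 cases. Of these, 2 were called lower, among them *Gse1* (94.5 to 71.1), and none higher, where 35.3% and 2.30% of all genes were. Their median difference of −11.30 lay near that of all genes. *Kdm1a*, the demethylase of that complex, ranked 95.2 and 92.8.

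The enzymes that write the mark kept high ranks in both libraries. All 13 HAT genes had a promoter peak in both libraries, and none was called in either direction. Of all genes 35.3% were called lower and 2.30% higher. The median rank of the HAT genes was 95.4 with vehicle, near the top of the scale, and 91.4 with curcumin. Their median difference was −4.23, against −12.81 for all genes, and the lowest value was that of *Kat2b* (95.8 to 77.7). *Ep300*, the gene of p300, which curcumin is known to inhibit, ranked 98.0 with vehicle and 99.4 with curcumin. Among 13 deacetylase genes 4 were called lower, led by *Hdac11* (69.5 to no peak) and *Hdac5* (95.1 to 55.4), and none higher, which is close to the 35.3% of all genes called lower. *Hmox1*, which encodes the heme-degrading enzyme heme oxygenase 1, ranked 80.7 and 66.1. Its difference of −14.60 points was not called and turned to 5.32 with equal numbers of top peaks and 9.52 when shared promoters were ranked among themselves. *Mcl1*, an anti-apoptotic gene, ranked 99.7 and 98.7. *Mycn* had no promoter peak in either library.

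T-lineage genes carried higher ranks in the library labelled curcumin. Of the 24 genes of the T-cell receptor (TCR) complex and its signalling with a promoter peak, all 24 had one in this library and 15 in the library labelled vehicle. Called higher were 15 of the 24, against 2.30% of all genes, and none was called lower. The median difference was 35.91, and 35.65 over the 19 genes outside chromosomes 1, 14 and 15, where 10 were called higher. *Cd8a*, *Trat1*, *Icos*, *Ctla4* and *Ptcra* had no promoter peak in either library. *Sh2d1a* was not among the autosomal genes. The TCR signalling chains differed among themselves. *Cd3e* had no peak with vehicle and rank 65.5 with curcumin (51 fragments), and *Cd3g* had none and rank 59.6 (43 fragments). *Cd247*, the zeta chain, went from 31 fragments and rank 49.3 to 102 fragments and rank 85.5. *Cd3d* had 55 and 72 fragments and ranked 74.4 and 64.4, but these values belong to separate peaks. The vehicle peak ran from 44986843 to 44987281, and the curcumin peak from 44981668 to 44983842, over the start of the gene. The ranks of *Cd3d* therefore do not compare the same site. *Zap70*, the kinase that binds the phosphorylated receptor, had no peak with vehicle and 101 fragments with curcumin at rank 91.4. Its ranks in the other genotypes were 59.96 and no peak in *GFI1-36N* and 21.8 and no peak in *GFI1-KD* mice, each with vehicle and curcumin. The kinase gene *Prkcq* ranked 31.6 with vehicle and 76.6 with curcumin. *Lck*, the kinase bound to the coreceptors, ranked 76.6 and 63.3. Its difference of −13.33 was not called and lay near the −12.81 of all genes. The coreceptor genes *Cd4* and *Cd8b1* had a peak with curcumin only, at ranks 62.3 and 49.0. *Cd2*, *Thy1*, *Skap1* and *Txk* completed the 9 promoters listed in the curcumin library alone. *Il7r*, the receptor chain for interleukin 7, ranked 4.41 and 64.5, with 28 and 87 fragments.

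The transcription factors of the T lineage were divided. With 17 of 19 measured, 7 were called higher and 1 lower, against 2.30% and 35.3% of all genes, and the median difference was 5.18. *Bcl11b*, which commits progenitors to the T lineage, had no peak with vehicle and 108 fragments with curcumin at rank 93.4. *Tcf7*, the gene of TCF1, ranked 52.5 and 95.9, *Gata3* 54.5 and 90.4, and *Ikzf3* 59.5 and 91.1. The *Ikzf3* ranks belong to separate peaks, from 98476625 to 98477232 with vehicle and from 98544690 to 98546758 with curcumin. When the summit had to lie inside the promoter window, the difference at *Gata3* was 7.34 points and no longer called. *Lef1* and *Id3* were listed with curcumin alone, at ranks 55.4 and 66.8. *Notch1*, which starts the T-cell programme, was the gene called lower, from 100 fragments and rank 83.7 to 40 fragments and rank 57.2. The difference at *Notch1* was −9.61 points with equal numbers of top peaks and −11.02 when shared promoters were ranked among themselves, and was then not called. *Runx3* and *Zbtb7b*, which direct the choice between the CD8 and the CD4 fate, ranked 84.4 and 83.1 with vehicle and 68.1 and 65.5 with curcumin. At *Zbtb7b* the peaks were again separate, from 89390041 to 89396701 with vehicle and from 89384711 to 89388576 with curcumin. *Eomes* had no peak. The genotype pairs not at issue here give the context. The TCR and signalling list had a median difference of 2.97 in the *GFI1-36N* mice and −12.14 in *GFI1-KD* mice, where all genes had 2.61 and −4.16.

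**Figure D1:**
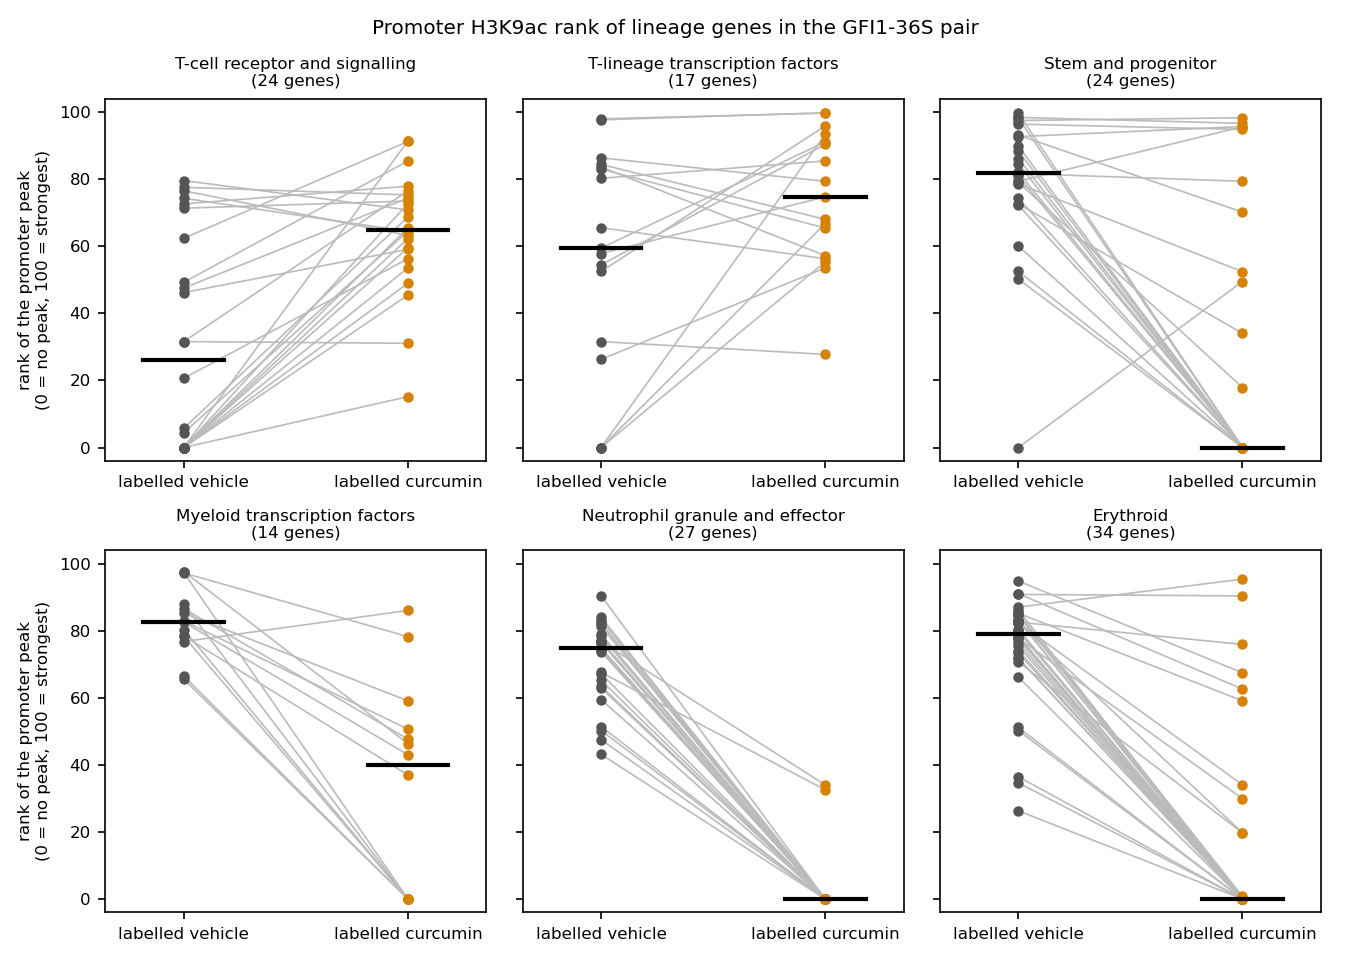
Rank of the strongest promoter peak of each gene (vertical axis, 0 for no peak to 100 for the strongest peak of the list) in the libraries labelled vehicle (grey points) and curcumin (orange points) for 6 gene lists. Lines join the same gene and black bars are medians. All 24 TCR and signalling genes had a peak in the library labelled curcumin, whereas 25 of 27 neutrophil genes dropped to 0 there.

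Antigen receptor loci hold gene segments rather than ordinary promoters, and over those of the T-cell receptor the library labelled curcumin also stood higher. Over the Tcra and Tcrd locus on chromosome 14 (52422928 to 54229206, annotated segments with 5 kb on each side), the library labelled vehicle had 7 peaks covering 3913 bp and the library labelled curcumin 47 peaks covering 41494 bp. The strongest reached a fold enrichment of 9.64 and 22.2, respectively. Shared sites over all of chromosome 14 also stood higher with curcumin, by 0.36 on the log2 scale relative to all shared sites. The part of that shift in the locus values was not tested. Over Tcrg on chromosome 13, 1 peak of 475 bp stood against 9 peaks of 19790 bp. Over Tcrb on chromosome 6, the counts of 3 and 4 peaks were alike, but they covered 1311 and 7336 bp and reached a fold enrichment of 4.97 and 21.01. The covered length was not particular to this library, since the *GFI1-36N* libraries had 10 peaks each over Tcrb, of 7485 bp with vehicle and 5820 bp with curcumin, with a fold enrichment of at most 7.11 and 8.48. The other 4 libraries had 3 to 7 peaks over Tcra and Tcrd and 0 to 18 over Tcrg. The 18 peaks, which covered 11263 bp, belonged to *GFI1-36N* vehicle. Immunoglobulin loci were close to bare in both *GFI1-36S* libraries. Igh had 3 peaks with vehicle and 1 with curcumin, Igk 4 and 0, and Igl 0 and 0. Whether the loci were rearranged in these cells was not measured.

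**Figure D2:**
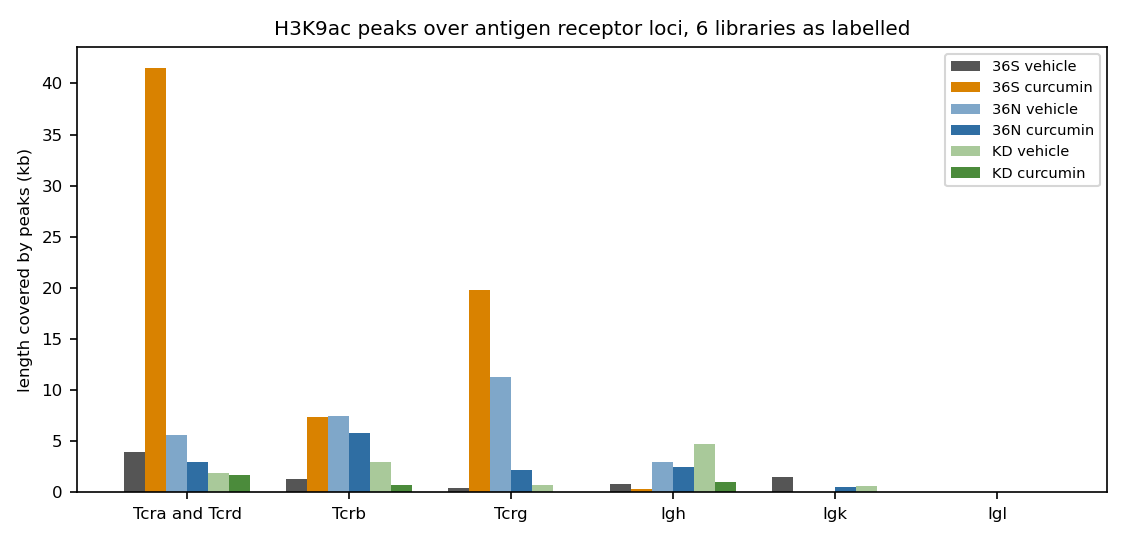
Length covered by H3K9ac peaks (kb, vertical axis) over the T-cell receptor and immunoglobulin loci (horizontal axis) in the 6 libraries as labelled, 1 bar per library. The library labelled *GFI1-36S* curcumin covered 41494 bp of the Tcra and Tcrd locus, while the library labelled *GFI1-36S* vehicle covered 3913 bp.

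Neutrophil and monocyte genes were the mirror image. All 27 measured neutrophil genes were called lower in the library labelled curcumin, against 35.3% of all genes, and 25 of them had no peak there. The median difference was −74.68. The granule protease genes *Elane* and *Ctsg* ranked 62.9 and 76.9 with vehicle and had no peak with curcumin, and *Mpo*, the gene of myeloperoxidase, had 92 fragments and rank 82.3 and no peak. *S100a8* and *S100a9*, which encode calprotectin, ranked 79.0 and 76.5 with vehicle alone. *Csf3r*, the G-CSF receptor, had 98 fragments and rank 83.4 with vehicle alone. The genes with a peak left were *Prtn3* (76.8 to 34.0) and *Ncf4* (67.6 to 32.6). All 4 libraries of the other genotypes had a peak at *Mpo*, at ranks from 69.0 to 80.8. Most genes that define the myeloid cells of marrow were thus below the list threshold in the library labelled curcumin. Among 18 monocyte and macrophage genes 17 were called lower, 15 of them without a peak in the curcumin-labelled library, and the median difference was −69.72. *Cd14*, the receptor for lipopolysaccharide, ranked 87.9 with vehicle alone, and *Csf1r*, the M-CSF receptor, 77.0. The exception was *Vcan* (77.0 to 61.8).

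Myeloid transcription factors followed, with 12 of 14 called lower, against 35.3% of all genes, and a median difference of −46.40. *Spi1*, which encodes PU.1, fell from 192 fragments and rank 97.7 to 30 fragments and rank 46.4. *Cebpa* and *Cebpd*, which drive granulocyte differentiation, had 123 and 189 fragments with vehicle and no peak with curcumin. *Cebpb* (97.3 to 78.3) and *Gfi1* itself were the 2 that were not called. *Irf8*, which *GFI1* is known to hold down in granulocytes, ranked 78.5 and 37.0. Since these 3 lists share members such as *Cebpe*, *Irf8* and *Klf4*, their counts are not separate.

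Erythroid genes were also called lower, in 31 of 34 cases with a median difference of −71.81, against 35.3% of all genes called lower. No peak was listed with curcumin for 23 of them. Globin genes had weak peaks with vehicle (*Hbb-bs* rank 50.3, *Hbb-bt* 26.3, *Hba-a1* 34.7, *Hba-a2* 36.5) and none with curcumin. Reads of these near-identical gene copies may have been shared between them. *Epor*, the erythropoietin receptor, ranked 77.5 with vehicle alone, and *Tal1* 84.6. *Klf1*, the master regulator of the red cell programme, kept a peak and went from 141 fragments and rank 91.1 to 47 fragments and rank 62.6. With equal numbers of top peaks the difference at *Klf1* was −19.23 points and just short of a call. The 3 genes not called were *Zfpm1* (82.6 to 75.9), *Tfrc*, the transferrin receptor (90.9 to 90.4), and *Xpo7* (87.1 to 95.4). *Tfrc* is also used by other dividing cells. The enzymes of heme biosynthesis did not follow the erythroid list. Of 7 enzymes, 2 were called lower, *Cpox* (26.3 to no peak) and *Fech* (94.1 to 72.1), and their median of −14.86 lay near that of all genes. *Fech* was no longer called with equal numbers of top peaks, at −15.87 points. Among 12 megakaryocyte and platelet genes 10 were called lower, again against 35.3% of all genes, with a median of −60.13. *Itga2b* (CD41) and *Gp1ba* ranked 60.7 and 69.5 with vehicle alone. *Fli1* was at 97.5 and 98.4, and *Selp* at 11.6 with vehicle alone was too weak to be called. *Pf4* had no promoter peak in either library.

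Stem and progenitor genes ranked lower in most cases, including their strongest promoters. Of 24 measured, 17 were called lower and 1 higher, against 35.3% and 2.30% of all genes, with a median difference of −56.29. *Lmo2* had the highest rank among the promoters listed with vehicle alone, at 99.7 with 238 fragments. The related regulators *Lyl1* (89.9), *Tal1* (84.6), *Gata2* (86.2) and *Erg* (88.4) were listed with vehicle alone as well, whereas *Runx1* kept a peak at 93.2 and 70.2. *Kit*, the c-kit receptor, had 91 fragments and rank 82.1 with vehicle and no peak with curcumin. *Kit* was listed in all 4 other libraries, at ranks from 46.0 to 77.6. *Cd34* ranked 74.4 with vehicle alone. *Myb* (92.7 and 95.8), *Etv6* (96.5 and 94.9), *Msi2* (98.5 and 96.7) and *Sox4* (79.4 and 95.7) were strong in both. *Slamf1*, which T cells also express, was the gene called higher, from no peak to 49.5.

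*Hoxa* genes are raised by the *NUP98-HOXD13* fusion. All 7 measured were called lower, against 35.3% of all genes, with a median of −81.14. *Hoxa9*, *Hoxa7* and *Hoxa3* shared 1 peak of the vehicle-labelled list on chromosome 6 from 52211038 to 52231329, at rank 99.3 with 223 fragments, so that they do not count as 3 observations. When the summit had to lie inside the promoter window, *Hoxa9* was not measured. *Hoxa10* ranked 81.1 with vehicle alone. *Hoxa4* (84.3 to 53) kept a weaker peak. In the *Hoxb* cluster 4 of 5 were called lower, and *Hoxb4* was at 92.4 and 83.0.

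B-lineage genes showed no common direction. Of 23 names, 9 had a promoter peak, 4 were called lower and 2 higher, where 35.3% and 2.30% of all genes were. The count called lower lay near that share. *Cd79b*, a chain of the B-cell receptor, ranked 76.1 with vehicle alone, while *Dntt*, which adds nucleotides during receptor rearrangement, and *Pou2af1* ranked 51.4 and 56.3 with curcumin alone. *Vpreb1*, of the surrogate light chain, was strong in both at 96.9 and 89.7. *Cd79a*, *Pax5*, *Ebf1* and *Rag1* had no promoter peak in either library. Natural killer (NK) and cytotoxic genes were hardly measured, since 11 of 14 had no peak. *Nkg7* ranked 57.9 with vehicle alone and *Gzma* 1.57 with curcumin alone. Markers of stroma and endothelium gave 3 measured genes of 12, all called lower, with *Pecam1* at 79.4 and 56.3. Of 13 genes of mast cells, basophils and eosinophils *Hdc* alone was measured (79.0 to 48.3), and of 1086 olfactory receptor genes 3 were.

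Antigen presentation and interferon genes are likewise read against the 35.3% of all genes called lower and their median of −12.81. Of the 7 measured MHC class II genes 6 were called lower. *H2-Ab1* ranked 78.5 with vehicle alone, and *H2-DMa* was the exception at 98.8 and 97.9. For MHC class I presentation 5 of 10 were called lower, led by *Tapbp* (88.2 to 64.3) and *Tap2* (90.1 to 66.8), and the median of the list was −20.06. Of 44 interferon-stimulated genes 31 were called lower and none higher, with a median of −28.06. *Rsad2* ranked 79.8 with vehicle alone, *Ifi27* went from 82.9 to 5.396 and *Dhx58* from 78.6 to no peak. *Bst2* (98.2 to 80.4) and *Irf7* (96.5 to 81.5) stayed near the shift of all genes. Dendritic cell genes were called lower in 5 of 7 cases, and *Batf3* was called higher (22.8 to 58.5).

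Lists of genes that every dividing cell uses lay above the median of all genes. Of 73 cytosolic ribosomal protein genes 1 was called, *Rpl3l* (36.5 to no peak), which is the form of striated muscle, and their median difference was −0.08. Among 32 DNA replication genes 1 was called lower, *Gins2* (81.2 to 59.2). *Mcm6*, of the replicative helicase, went from 89.6 to 99. The medians of other such lists were those of the mitosis list (−4.30, 1 of 20 called lower), the oxidative phosphorylation list (−5.56, 5 of 74), the proteasome list (−6.82, 2 of 34) and the mitochondrial ribosome list (−7.99, 9 of 74). Stress and signalling lists are read against the 35.3% of all genes called lower, and several of their counts lay near that share. NF-κB pathway genes were called lower in 8 of 20 cases (*Il1b* 61.9 and *Cxcl2* 57.9 with vehicle alone), NRF2 antioxidant genes in 5 of 17 (*Nqo1* 74.1 with vehicle alone), and p53 pathway and cell cycle inhibitor genes in 5 of 15 (*Cdkn2b* 81.1 with vehicle alone, *Cdkn1a* 88.2 to 46.4). Immediate early genes were called lower in 10 of 23 cases, with *Atf3* at 81.4 and *Fosl1* at 70.1 with vehicle alone and *Jun* at 225 and 26 fragments and ranks of 99.4 and 39.2. For the BCL2 family it was 7 of 13, where *Pmaip1*, the gene of NOXA, and *Bcl2l2* ranked 98.3 and 78.3 with vehicle alone. Cytokine and growth factor receptors were called lower in 11 of 18 cases, led by *Il10ra* (89.1 with vehicle alone), and *Il7r* was called higher. Replication-dependent histone genes were called lower in 11 of 39 cases and *Zfp* genes in 102 of 274, with *Zfp532* called higher (no peak to 64.7).

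**Figure D3:**
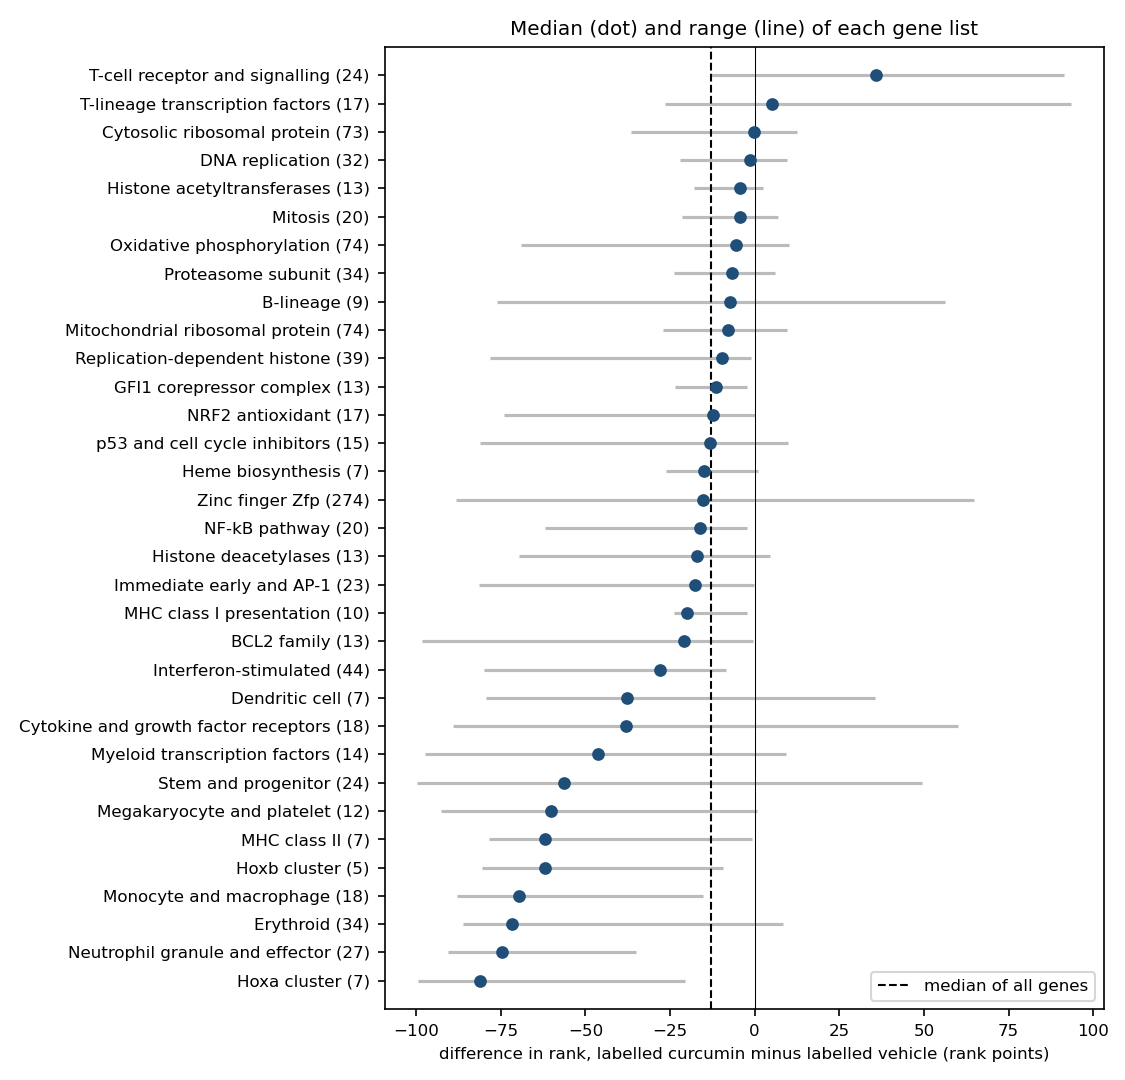
Difference in promoter rank (curcumin minus vehicle as labelled, horizontal axis, rank points) for each gene list with at least 5 measured genes, with the number of genes in brackets. Dots are medians, lines run from the lowest to the highest gene and the dashed line is the median of all genes, −12.81. The TCR and signalling list lies at 35.91 and the *Hoxa* cluster at −81.14.

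The promoters with the strongest peak in 1 library only were named without regard to function. With vehicle alone these were *Lmo2*, *Gm28308*, *Hoxa3*, *Hoxa7*, *Hoxa9*, *Zeb2*, *Dennd5a*, *Nlrx1*, *Gm26602* and *Pmaip1*, at ranks from 98.3 to 99.7, and each had a peak in all 4 libraries of the other genotypes. *Gm28308*, *Hoxa3*, *Hoxa7* and *Hoxa9* shared 1 peak of the vehicle-labelled list and are 1 observation. *Zeb2*, a repressor used in myeloid and stem cells, had 221 fragments. With curcumin alone they were *Gpr25*, *Bcl11b*, *Zap70*, *Lemd3*, *Xkr6*, *Endou*, *Sh2d2a*, *Grap2*, *Cnnm1* and *Trnp1*. Of these, *Gpr25* and *Zap70* lie on chromosome 1, *Xkr6* on chromosome 14 and *Endou* and *Grap2* on chromosome 15. *Gpr25*, an orphan receptor gene on chromosome 1 from 136259797 to 136260873, led with 122 fragments and rank 96.1 and had no peak in any other library. *Sh2d2a*, which encodes a T-cell adapter protein, ranked 85.2, and *Grap2*, whose product GADS links the activated TCR to its signalling, 83.8 with 117 fragments, and *Grap2* had a peak in all 4 other libraries. *Lemd3* was different, since it ranked 97.6 and 96.8 in the *GFI1-36N* pair and 97.7 with *GFI1-KD* curcumin.

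Distal sites were those at least 5 kb from every coding TSS. There were 19740, of which 2288 were in both libraries, 14987 (75.9%) in the library labelled vehicle alone and 2465 (12.5%) in the library labelled curcumin alone. The vehicle-labelled share of those in 1 library only was 85.9% (85.4% to 86.4%), 14.1% with the treatments exchanged and 57.8% with equal numbers of top peaks. Of the curcumin-labelled distal sites 48.1% were found in the other list, compared with 93.8% of its promoter sites, and of the vehicle-labelled distal sites 13.2%. They also split by their presence in the other genotypes. Of the sites with curcumin alone, 1787 (72.5%) had no peak in any of the 4 other libraries, against 14.3% of the sites with vehicle alone. All 4 other libraries had a peak at 34.8% of the vehicle-labelled and 1.38% of the curcumin-labelled sites. The sites with curcumin alone stood lower in their list, at a median rank of 19.7 against 36.5 for those with vehicle alone. Summits with curcumin alone lay in introns at 56.4%, between genes at 39.6% and in exons at 4.06%, and the median distance to the nearest TSS was 20.3 kb (18.05 kb with vehicle alone).

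Near T-lineage genes, most distal sites in 1 library only were labelled curcumin. Within 100 kb of the genes nearest to them, 13.7% of the sites in 1 library only were labelled curcumin. Near TCR and signalling genes the share was 73.6%, with 53 sites against 19, and near T-lineage transcription factors 54.1%, with 60 against 51. Over all distal sites in 1 library only, the share was 55.3% on chromosome 15, 31.4% on chromosome 14 and 21.4% on chromosome 1. *Cd247* and *Cd28* lie on chromosome 1 and *Fyb* on chromosome 15, with 13, 4 and 6 sites with curcumin alone. The shares near gene lists were not computed without these chromosomes. Near neutrophil genes it was 2.56% (1 site against 38), near erythroid genes 4.29% (3 against 67), and near stem and progenitor genes 13.4% (23 against 149). *Bcl11b* had 15 distal sites with curcumin alone and 0 with vehicle alone, *Cd247* 13 and 0, *Thy1* 11 and 0, and *Ets1* 19 and 3. The gene with most such sites was *Dad1*, with 30 and 0. *Dad1* adjoins the Tcra locus on chromosome 14 and was the nearest coding gene to its segments. *Trio* (20 and 8), *Celsr1* (19 and 1) and *Nck2* (16 and 1) followed, the first 2 on chromosome 15 and *Nck2* on chromosome 1. With vehicle alone the most sites lay near *Etv6* (40, against 2 with curcumin alone), *Cmip* (31 and 1), *Zfp36l2* (25 and 4), *Foxp1* (24 and 5) and *Notch2* (24 and 0), and *Runx1* had 24 and 1. The promoters of *Etv6* and *Zfp36l2* were strong in both libraries.

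**Figure D4:**
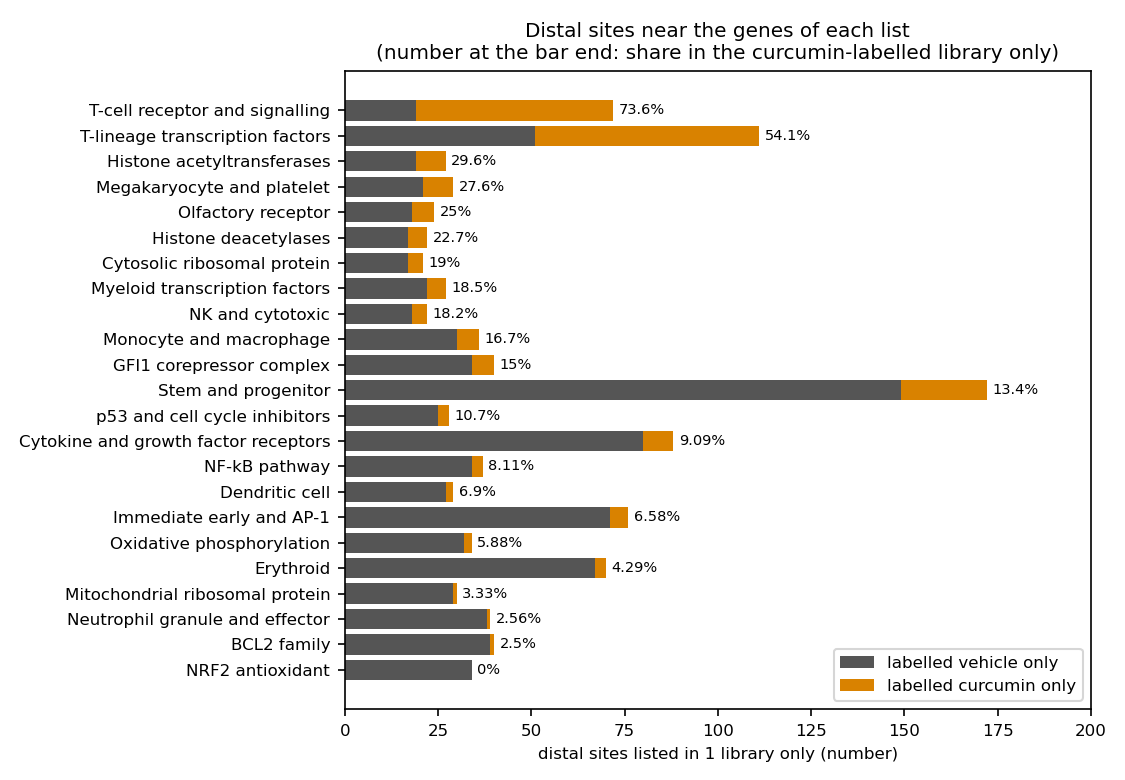
Distal sites listed in 1 library only (number, horizontal axis) whose nearest coding TSS within 100 kb belongs to a gene of each list, for lists with at least 20 such sites. Grey marks the library labelled vehicle, orange the library labelled curcumin, and the percentage is the orange share. It was 73.6% near TCR and signalling genes and 2.56% near neutrophil genes.

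The strongest distal site with curcumin alone spanned chromosome 14 from 54193256 to 54202339, across Tcra J segments, with 156 fragments at a rank of 96.5, and no other library had a peak there. Its summit window, shown above, held 1 RUNX motif. Of the 10 strongest, 3 lay over the Tcrg locus on chromosome 13 (from 19307627, 19309474 and 19336522), at ranks of 75.7, 84.8 and 83.8. The J2 window among them held none of the motifs. The others lay in introns of *Hlcs* (rank 91.1), *Camk2b* (2 sites, 77.7 and 75.9) and *Zbtb38* (70.2) and in intergenic sequence with *Dtl* (86.3) and *Ptprh* (72.1) as the nearest genes. The 10 strongest with vehicle alone had *Ccr2*, *Casz1*, *Ptpn18*, *Mcu*, *Nanos3*, *Def8*, *Klf6*, *Zfp773*, *Gm11084* and *Cd34* as nearest genes, at ranks from 86.2 to 90.9. The site near *Ccr2*, a chemokine receptor gene of monocytes, had 140 fragments at chromosome 9 from 124079757 to 124080800. The site near *Klf6* (134 fragments, 16.01 kb away) and that near *Cd34* (114 fragments, 37.5 kb away) were found in all 4 other libraries, as were all but the sites of *Def8* and *Zfp773*. Nearest genes were taken among coding genes only. The site near *Cd34* overlapped the noncoding genes *A330023F24Rik* and *Gm16897*, that near *Ptpn18* overlapped *4930568A12Rik* and that near *Nanos3* overlapped *Gm26887*. Which gene such a site serves was not tested.

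The promoters in 1 library only were poorer in CpG dinucleotides. Over 1000 bases around the most upstream TSS, a promoter was counted as CpG-rich at a GC content of at least 50% and an observed to expected CpG ratio of at least 0.6. This held for 74.8% of promoters with a peak in both libraries (Wilson 95% interval 74.0% to 75.7%), 36.8% of those with vehicle alone (34.7% to 39.0%) and 47.7% of those with curcumin alone (41.4% to 54.0%). At distal sites, short motifs separated the classes weakly. The E-box CAGCTG, read by T-cell E proteins among others, occurred in 16.1% of the 200-base windows with curcumin alone and 13.3% with vehicle alone (13.9% of all distal sites), a difference of 2.85 percentage points (Newcombe 95% interval 1.3 to 4.5). Of the sites in both libraries 15.7% held it, near the share with curcumin alone. AGATAA of the GATA factors occurred in 8.32% and 9.64% (9.33% of all), a difference of −1.32 points (−2.5 to −0.074), and in 8.44% of the sites in both libraries. Median GC content of these windows was 50.5% with curcumin alone, 48.5% with vehicle alone and 52% in both libraries. Its part in the motif differences was not tested. For the other 6 motifs the interval of the difference included 0 in windows of this length, with GAGGAA at 21.4% and 22.1%, TGTGGT at 15.8% and 16.3%, and TTGCNNAA at 7.46% and 7.87%. In windows of 1000 bases, a length added after the data were seen, the interval excluded 0 for 4 of these 6. PU.1/ETS (−5.09 to −1.17), C/EBP (−7.50 to −3.43) and AP-1 (−7.63 to −3.92) were then less frequent with curcumin alone and TCF/LEF (1.74 to 5.97) more frequent. A match is a run of letters and was not tested as a binding site.

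The chromosomes were compared after an excess of curcumin-labelled sites on some of them had been seen. At the 12804 shared sites the median log2 ratio of fold enrichment, curcumin over vehicle, was −0.70. Relative to it, chromosome 15 lay at 0.64, chromosome 14 at 0.36 and chromosome 1 at 0.18, while the other 16 autosomes lay between −0.08 and −0.01. The shift on chromosome 15 extended along its length, with values between 0.57 and 0.69 in each 20-Mb segment. On chromosome 14 the segments with at least 20 shared sites lay between 0.26 and 0.47. Chromosome 1 was divided, with values from −0.17 to 0.06 in the 5 segments below 100 Mb and from 0.24 to 0.40 in the 5 segments above. The sites in 1 library only followed the same chromosomes. On chromosome 15 the curcumin-labelled sites made up 51.9% of them, on chromosome 14 25.7% and on chromosome 1 19.6%, against 7.62% to 13.4% on the other 16. Chromosome 15 held 6.54% of all autosomal peaks in the library labelled curcumin and 3.03% in the library labelled vehicle, compared with 3.00% and 3.33% in *GFI1-KD* mice and 4.68% and 5.26% in *GFI1-36N* mice, each with vehicle and curcumin. DNA copy number was not measured. Without chromosomes 1, 14 and 15, 90.1% of the sites and 90.2% of the promoters in 1 library only were labelled vehicle. The promoter ranks of T-lineage and myeloid lists kept their directions there.

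**Figure D5:**
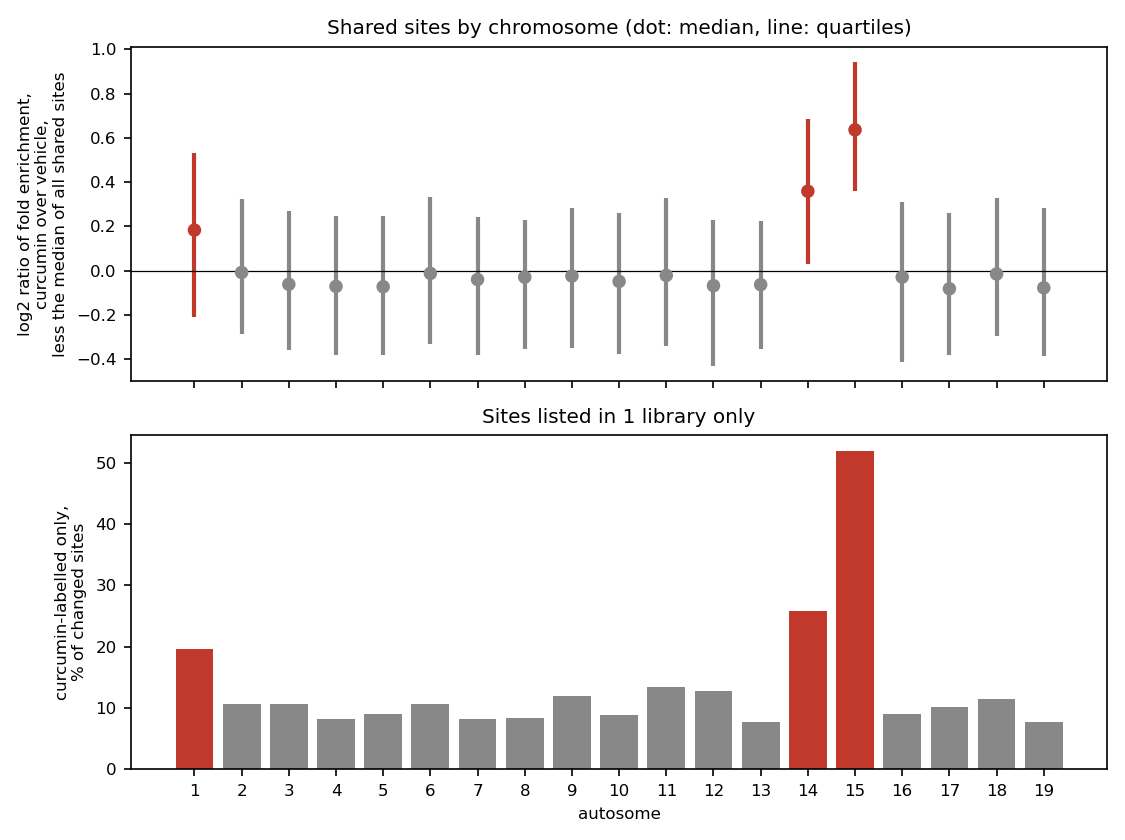
Upper plot, log2 ratio of fold enrichment at sites shared by both libraries (curcumin over vehicle as labelled, less the median of all shared sites) for each autosome, with dots for medians and lines for quartiles. Lower plot, share of sites in 1 library only that were listed with curcumin (percent). Chromosome 15 stands highest in both, at 0.64 and 51.9%, followed by chromosome 14 (red with chromosome 1).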

How the data were processed

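H3K9ac ChIP-seq of frozen BM cells was taken as 6 deposited peak lists, and the *GFI1-36S* pair was compared. The authors trimmed reads with Trim Galore, aligned them to mm10 (BWA-MEM) and ran MACS2 on each library to list peaks. SAMtools, Picard and deepTools are also named in the submitters' processing notes. The control of each list, the peak threshold and the handling of duplicates are not given in the sources used here. Per peak, the authors' lists give an integer score, the fold enrichment (a ratio of summit pileup to local expectation), the −log10 p-value, the −log10 q-value, and the summit position. Values are not normalized between libraries. The lists hold no read totals.

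Here, peaks on the 19 autosomes were merged at 1 bp of overlap, and fold enrichment was ranked within each list. Genes were those of GENCODE M21. Fragments at a summit were recovered by MACS2's relation within 0.002 on the −log10 p scale. Python 3.11.15, numpy 2.4.6, scipy 1.17.1, pandas 2.3.3 and pysam were used, and scripts were tested on simulated data. Groups of 1 library allowed no test between treatments. Wilson 95% intervals cover counting error only, and fragments without molecular identifiers are not independent molecules. Members and gene lists were chosen with earlier results of these data known. Genes were named by a rule. It took *Gfi1* first, any lineage list member, the 2 to 4 members with the largest rank difference of each function list, the 10 strongest promoters and distal sites in each library only, the 5 genes with most such distal sites in each direction, and *Hmox1*, *Mcl1* and *Mycn*. Other genes in function lists (*Kdm1a*, *Ep300*, *Bst2*, *Irf7*, *Mcm6*, *H2-DMa*) were chosen after their values were seen, as were the comparison of chromosomes and that of antigen receptor loci. Alternatives changed the ranking column, q limit, list length, promoter window, summit rule, overlap, distal distance, gene biotypes and the treatment labels. The input and IgG samples were not used.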

Additional observations from a re-analysis of the deposited data

Results flagged for a closer look

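Outside the autosomes compared here, chromosome Y held 3 peaks in the curcumin-labelled *GFI1-36S* library and 0 in the other 5 libraries. The curcumin-labelled library had 420 of its 20354 peaks on chromosome X and the library labelled vehicle 775 of its 41312. The smaller count thus goes with a shorter list. Sex and treatment cannot be told apart in this pair.

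For 5 gene lists the median change in promoter rank, taken relative to that of all genes of the pair, went one way in *GFI1-36S* and the other way in *GFI1-KD* mice by at least 5 rank points in each. The TCR and signalling list lay at 48.7 in *GFI1-36S* and −7.98 in *GFI1-KD* mice, and the T-lineage transcription factors at 18 and −7.58. The B-lineage list lay at 5.61 and −9.26. The *Hoxa* cluster lay at −68.3 and 35, and the *Hoxb* cluster at −49.1 and 48.5. In *GFI1-KD* mice *Hoxa3*, *Hoxa7* and *Hoxa9* ranked 57.3, 74.6 and 63.1 with vehicle and all had the same rank of 99.7 with curcumin. The *GFI1-KD* median of 6 *Hoxa* genes may thus rest largely on 1 shared peak. These differences between genotypes were not tested, since each rests on 1 library per treatment, and all of them turn round for *GFI1-36S* with the treatments exchanged. In *GFI1-36N* mice, where 4 *Hoxb* genes were measured, that cluster lay at 32.6.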

How the results depend on the processing

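No paired analysis was possible because each group has 1 library. Ranking by −log10 p and a 3-kb promoter window left the shares and list counts computed for them within the 95% interval of their value. An overlap of 50% of the shorter peak could not change the shares of changed sites. It reclassifies shared sites only, and list counts were not computed for it. With a −log10 q of at least 5, the vehicle-labelled share of changed sites was 86.5% and of changed promoters 87.4%, and 2.61% of genes were called higher. With the summit inside the window the promoter share was 86.7% and 2.69% of genes were called higher. With genes of all biotypes the promoter share was 87.0%. Distal sites from 1 kb and from 20 kb gave 86.9% and 84.7%.

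Equal numbers of top peaks (19931 per list) moved most results, by construction of a shorter vehicle list. The vehicle-labelled share was 61.0% of changed sites, 57.8% of distal sites and 76.2% of promoters, 15.9% of genes were called lower and 7.04% higher, and the share called higher was 83.3% for TCR and signalling and 64.7% for T-lineage transcription factors. The share called lower was 83.3% for neutrophil, 68.8% for monocyte and 47.8% for stem and progenitor genes. Ranked among themselves, genes with 2 peaks, 1 per library, gave 13.6% called lower and 13.9% higher. There 0 of 2 neutrophil, 0 of 3 monocyte, 0 of 2 megakaryocyte, 36.4% of 11 erythroid and 10% of 10 stem and progenitor genes were called lower. *Spi1* remained called lower there, at −80.58 points.

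With the treatments exchanged, the vehicle-labelled share was 12.6% of sites, 14.1% of distal sites and 11.2% of promoters, 2.30% of genes were called lower and 35.3% higher, 0% of TCR and signalling and 5.88% of T-lineage transcription factors were called higher, and 0% of neutrophil, monocyte, erythroid and megakaryocyte and 4.17% of stem and progenitor genes lower. Without chromosomes 1, 14 and 15, chosen after the data were seen, the shares were 90.1% of sites, 89.0% of distal sites and 90.2% of promoters, with 36.8% of genes called lower and 2.02% higher. In windows of 1000 bases, also chosen then, the motif share with curcumin alone less that with vehicle alone was −4.32 percentage points for GATA, −3.10 for ETS, −5.49 for C/EBP, 3.86 for TCF/LEF, 6.50 for the E-box and −5.81 for AP-1. The interval then excluded 0 for each of these 6, against 2 in windows of 200 bases. Of 152 differences of 24 named genes, 143 kept both their sign and their side of the call, and 5 calls were lost (*Notch1* at −9.61 and −11.02, *Klf1* at −19.23 and *Fech* at −15.87, each with the shorter or shared lists, and *Gata3* at 7.34 with the summit rule). *Hmox1*, which was not called, changed sign at 5.32 and 9.52, and *Gfi1* passed the call at 33.25 and 57.41.

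Depth limits weak sites most, since a listed summit held at least 14 fragments.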
